A study of Mus musculus with 11 samples.

Results

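PN1b is a line of premalignant mammary lesions grown from p53-null (Trp53-/-) Balb/c mammary epithelium, and within it 4 of the 6 array samples carry a label that gives a span of numbers, while the other 2 carry a single name with no span. The latter are called single-titled below, and the names take different forms. The members compared here are these 6 samples of 11 in the series, chosen by the form of their labels alone, with 4 in the range-titled group and 2 in the single-titled group. Apart from the form of the label and its last field, given below, no labelled property separates the groups. Both have no labelled treatment, and the glands were collected 8 weeks after transplantation. By the study's general methods, p53-null epithelium was placed in the cleared fat pads of wild-type female Balb/c hosts that were 3 weeks old. The remaining 5 samples are PN1a, a line derived from the opposite outgrowth of the same mouse, and serve only as a reference.

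The 2 kinds of label also differ in their last field. Both single-titled glands and all 5 PN1a glands end alike, and the range-titled glands have 2 other endings, 1 for range-titled gland 2 and 1 for the other 3. No source used here explains the endings or the spans of numbers. A span could stand for a pool of glands, and neither pooling nor the ending can be told apart from the group. Whether the samples came from separate mice is also not stated, and every p-value therefore covers just the scatter of these 6 arrays, which may be technical.

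A mammary gland consists of ducts with an inner luminal layer and an outer basal or myoepithelial layer that contracts and rests on a basement membrane. Ducts lie in a fat pad with fibroblasts, vessels and immune cells, and a hyperplastic lesion changes the share of each. Because whole glands were lysed in TRIzol, fewer cells of a type and less RNA per cell cannot be told apart in any value below. Glycolysis breaks glucose down to pyruvate in the cytosol, and its enzymes and glucose transporters are under control of hypoxia-inducible factors, which bind short sites with core letters such as ACGTG.

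The values are log2 of the intensities that the authors deposited, 1 per probe set on the Affymetrix MG_U74Av2 array, and a difference is the range-titled mean minus the single-titled mean. A probe set was called when limma gave a Benjamini-Hochberg adjusted p under 0.05 over 12422 probe sets together with a fold change of at least 1.5. The number of arrays limits the precision. Correlations across probe sets were 0.945 to 0.966 among range-titled glands, 0.945 for the single-titled pair and 0.919 to 0.941 between the groups. Probe sets are not independent replicates, and these coefficients are a description.

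Some array controls separated the groups. Of 66 control probe sets, 7 (10.6%) were higher and 14 (21.2%) lower in every range-titled gland, against 14.8% and 11.7% of all tested probe sets. The log2 difference between the 3′ and 5′ control probe sets of Gapdh, which grows when RNA is degraded or incompletely copied, was 0.32, 0.34, 0.45 and 0.63 in range-titled glands 1 to 4 and 1.12 and 2.38 in single-titled glands 1 and 2. The same difference for Actb was 0.40, 0.41, 0.69 and 1.04 against 0.97 and 2.27. The Gapdh values of the groups did not overlap and the Actb values did, with single-titled gland 2 highest in both. The 5′ and middle control probe sets of 18S RNA overlapped between the groups, and its 3′ control was lower in every range-titled gland. The control for the B1 repeat, a short interspersed element, read 141, 130, 162 and 218 in intensity against 360 and 317, so that every range-titled gland was lower. Over PN1a the B1 control ran from 267 to 1050 and the Gapdh difference from -0.27 to 2.06. The median intensity of a sample was 8.88 to 9.51 in all 6 glands. Among the reference glands PN1a 1 and 2 stood apart, with means of the immediate early list, described below, of -2.67 and -2.87 against -0.37 to -0.08 in the other 3. The part of RNA quality in the differences that follow was not tested.

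**Figure D1:**
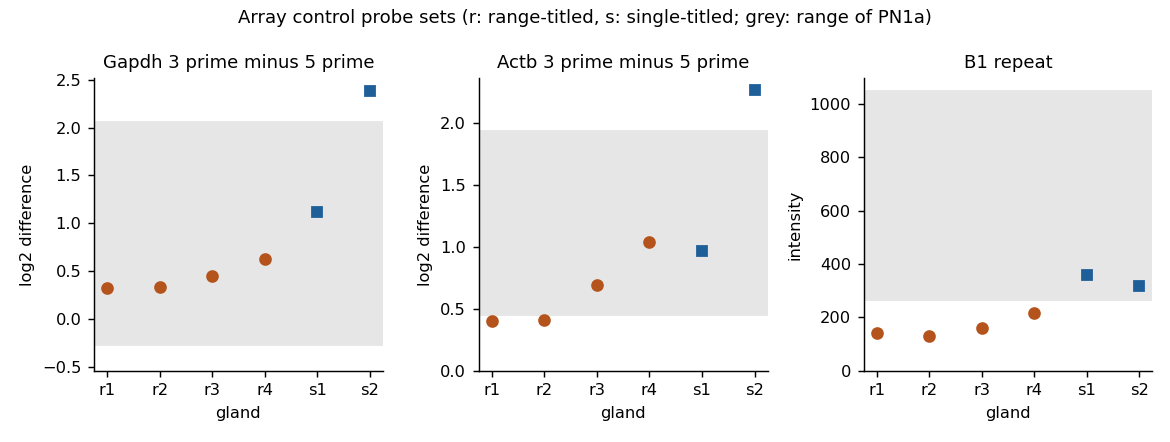
Array controls in the 6 PN1b glands, with glands on the x axis and, from left to right, the 3′ minus 5′ log2 difference of Gapdh, that of Actb and the intensity of the B1 repeat on the y axis. Circles are range-titled glands, squares single-titled glands, and the grey band spans the 5 PN1a glands; the 2 squares lie above all 4 circles for Gapdh (1.12 and 2.38) and for B1 (360 and 317) but not for Actb.

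Of 12422 probe sets, 49 (0.394%) were higher and 28 (0.225%) lower in range-titled glands. They stood for 41 and 21 named genes, with a median fold change of 3.61 among the higher and 3.83 among the lower probe sets. The calls rested on every gland. Without range-titled glands 1, 2, 3 or 4 the higher and lower counts were 2 and 2, 8 and 5, 2 and 2, and 14 and 8. Without single-titled gland 1 nothing was called in limma, and without single-titled gland 2 the counts were 4 and 1, in fits that assume the lone gland varies like the others. Before adjustment 1162 and 891 probe sets had p under 0.05 (9.35% and 7.17%), and the methods' t-test called 0 after Benjamini-Hochberg adjustment. Genes below are given as values of single glands so that each group can be seen.

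Hypoxia and glycolysis genes formed the list with the largest positive median, and its 4 called members all rose in range-titled glands. Slc2a1, a widely expressed glucose transporter, read 8.90, 9.15, 9.14 and 9.06 against 7.43 and 6.76, a difference of 1.97 ± 0.26 (SE, adjusted p = 0.0209). Pgam1, the phosphoglycerate mutase, read 8.38, 8.57, 8.45 and 8.66 against 6.43 and 6.76, a difference of 1.92 ± 0.23 (SE, adjusted p = 0.0154). Neither gene had an overlap between the groups, and both had an SD of 0.12 (n = 4) among range-titled glands. Pfkl, the liver type of phosphofructokinase, read 8.23, 7.78, 7.51 and 7.24 against 5.70 and 5.20 (difference 2.24 ± 0.32, adjusted p = 0.0301). Car12, a membrane carbonic anhydrase that handles acid, read 8.79, 8.92, 8.83 and 9.16 against 6.21 and 7.02 (difference 2.31 ± 0.28, adjusted p = 0.0156). For Pfkl gland 1 was highest and gland 4 lowest, while Car12 was nearly level among range-titled glands.

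Most other glycolytic enzymes lay on the same side but were not called. Aldolase Aldoa had a log2 difference of 1.10 ± 0.22 (adjusted p = 0.0729) and pyruvate kinase Pkm one of 1.30 ± 0.26 (adjusted p = 0.0761). Lactate dehydrogenase Ldha read 9.20, 9.27, 8.97 and 9.05 against 8.34 and 7.91 (adjusted p = 0.109). Triose phosphate isomerase Tpi1 had 0.98 ± 0.25, phosphoglycerate kinase Pgk1 had 0.90 ± 0.22, and the factor Hif1a had 1.03 ± 0.24. Hexokinases, which phosphorylate glucose on entry, had differences of the opposite sign, -0.61 ± 0.23 for Hk1 and -0.52 ± 0.25 for Hk2, and neither was called. Of the 23 list members measured, 4 were called higher and 0 lower in limma, against 0.424% and 0.23% of 8251 genes. Before adjustment, 13 had p under 0.05 on the higher side and 1 on the lower side, where 10.1% and 6.68% of all genes did. The list's median log2 difference was 0.86, beside 0.06 over all genes with quartiles of -0.24 and 0.36.

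The mean of the hypoxia and glycolysis list per gland, with each gene set relative to its mean over the 6 PN1b glands, was 0.32, 0.18, 0.28 and 0.25 in range-titled glands and -0.46 and -0.56 in single-titled glands. The 5 PN1a glands, which share the label ending of the single-titled ones, ran from -0.77 to -0.46. The range-titled glands were therefore the 4 highest of 11 on this list.

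The promoters of the 2 called members that hold the ACGTG core are shown here with the 250 bases before the RefSeq start (build GRCm38.p6, 5′ to 3′ on the gene's strand), and the capitals mark the core. Slc2a1 is on chr4:119108495-119108744 and Pgam1 on chr19:41911621-41911870, both on the plus strand, with the core beginning 36 and 114 bases before the start.
Slc2a1: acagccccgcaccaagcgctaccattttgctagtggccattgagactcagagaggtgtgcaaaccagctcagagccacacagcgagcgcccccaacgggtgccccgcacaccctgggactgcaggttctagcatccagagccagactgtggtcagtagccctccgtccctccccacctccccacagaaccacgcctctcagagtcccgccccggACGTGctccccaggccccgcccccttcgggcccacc
Pgam1: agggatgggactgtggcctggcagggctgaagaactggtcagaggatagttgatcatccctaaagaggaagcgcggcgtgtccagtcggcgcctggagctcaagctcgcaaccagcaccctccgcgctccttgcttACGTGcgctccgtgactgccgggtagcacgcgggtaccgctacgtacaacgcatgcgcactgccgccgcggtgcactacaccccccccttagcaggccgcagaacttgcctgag
The windows of Car12 and Pfkl, the other 2 called members, had no ACGTG on either strand. Searched on both strands (ACGTG or CACGT), the core was present in 14 of 22 list members with a window (63.6%) and in 18.5% of 27025 RefSeq genes. The list was picked as hypoxia and glycolysis genes, changed or not, so a high share may come with that choice. Nothing about these glands is read from it. Of the 41 genes called higher, 32 had a window and 6 of these held it (18.8%), so the called genes as a whole were near the background share. A match is a string of letters and not a shown binding site.

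Basal and myoepithelial genes had the next largest median. Sfn, which encodes 14-3-3 sigma, an epithelial protein and known p53 target, read 8.27, 8.47, 8.50 and 7.50 against 5.22 and 4.13. Its difference of 3.51 ± 0.39 (SE, 11.4-fold, adjusted p = 0.0154) was the largest of the named genes on the higher side. Col17a1, the hemidesmosome collagen that anchors basal cells, read 6.08, 6.38, 6.34 and 6.37 against 4.77 and 4.75, a difference of 1.53 ± 0.22 (adjusted p = 0.0301). Both genes were separate between the groups, although PN1a reached 7.55 for Sfn and 6.39 for Col17a1 and so overlapped the range-titled glands.

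Of the 19 members measured 17 had a positive difference, the exceptions being Krt14 and Krt15. The laminin chains Lamb3 and Lama3, which make the matrix that hemidesmosomes bind, had differences of 1.56 ± 0.29 and 1.29 ± 0.31. The contractile genes Cnn1, Mylk and Myh11 had 1.54 ± 0.32, 1.20 ± 0.24 and 1.19 ± 0.25, while smooth muscle actin Acta2 had 0.66 ± 0.21. The basal keratin Krt5 had 1.25 ± 0.38, with single-titled glands at 1.51 and 2.99, and the basal lineage factor Trp63 had 0.48 ± 0.27. Krt14, a defining basal keratin, lay between 0.20 and 2.15 in the 6 glands, near the lowest values of the table, and its probe set gave no usable measure. Krt15 lay as low, between 0.46 and 2.17. The brighter keratin Krt17, between 5.10 and 5.96, had 0.25 ± 0.30 and overlapped between the groups. In all, 2 members were called higher and 0 lower in limma, and 11 had p under 0.05 before adjustment, all on the higher side. Of all genes 0.424% were called higher, and 10.1% were higher at p under 0.05 before adjustment. The median was 0.70. List means per gland were 0.28, 0.45, 0.31 and 0.17 against -0.68 and -0.54.

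**Figure D2:**
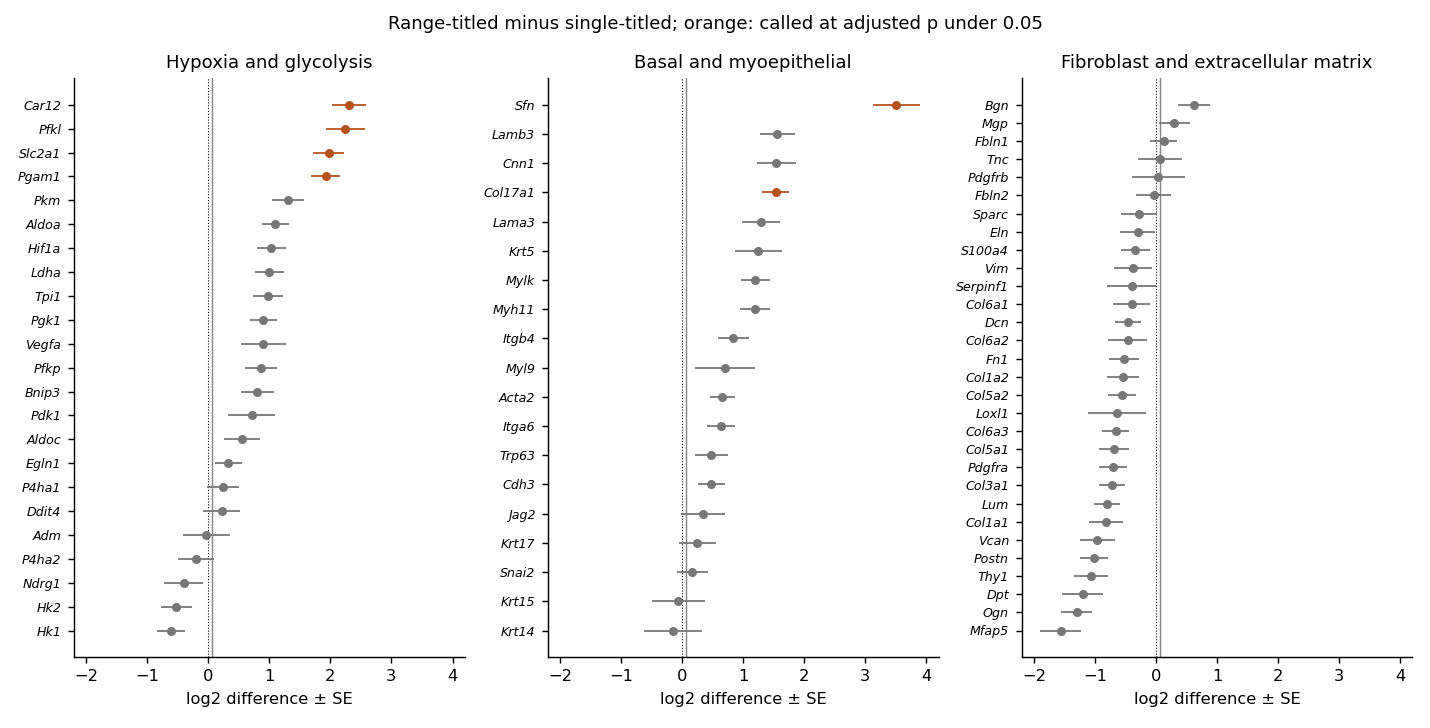
Differences of the single genes of 3 lists on the x axis (range-titled minus single-titled, log2, with SE bars from limma), 1 gene per line. Orange points are called; Car12, Pfkl, Slc2a1 and Pgam1 (left) and Sfn and Col17a1 (middle) are the called members, and 0 of 30 fibroblast and matrix genes (right) are called. The grey line is the median of all genes, 0.06.

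Luminal markers had differences of both signs. Krt8 and Krt18, the keratins of the inner layer, had differences of 0.56 ± 0.27 and 0.30 ± 0.22, and the claudin Cldn7 and the epithelial factor Elf3 had 1.18 ± 0.39 and 1.24 ± 0.35. Krt7 had the opposite sign, at 4.35, 3.54, 3.62 and 4.37 against 6.04 and 5.63 (difference -1.86 ± 0.32, adjusted p = 0.0536). The general luminal list had 0 calls among 19 members in limma and a median of 0.30, with 4 members higher and 2 lower at p under 0.05 before adjustment. Over all genes 10.1% were higher and 6.68% lower at that p. In the hormone-sensing list Wnt4, a ligand induced by progesterone, had a difference of 2.04 ± 0.37 (adjusted p = 0.0597) and Prom1 one of -1.14 ± 0.38, with a list median of -0.28. The sign of that median turned to 0.10 without single-titled gland 2 and to 0.45 with dim probe sets left out.

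Several called genes lie outside these lists. Arg1, the arginase that macrophages and some epithelia express, read 5.87, 5.16, 5.99 and 5.68 in range-titled glands and 1.55 and 2.82 in single-titled glands, a difference of 3.49 ± 0.39 (SE, 11.2-fold, adjusted p = 0.0154). Leaving out 1 gland moved this difference between 2.86 and 4.12. Because the single-titled values are low, the size of the fold is less certain than its direction. PN1a ran from 1.26 to 2.59, with the first single-titled gland inside that range and the second just above it. All 4 range-titled glands were higher than every other sample of the series.

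S100b, a calcium-binding protein of Schwann cells and other cell types, read 6.09, 6.04, 6.21 and 6.15 against 2.36 and 3.27, a difference of 3.31 ± 0.29 (adjusted p = 0.00785). Fxyd2, which regulates the sodium pump, read 8.25, 8.57, 8.62 and 7.85 against 4.69 and 5.13, a difference of 3.41 ± 0.29 (adjusted p = 0.00785). The pump subunit Atp1b1 was also called, with a difference of 1.67 ± 0.27 (adjusted p = 0.0412). Its other, dimmer probe set (mean log2 intensity 2.35) had 0.25 (adjusted p = 0.745), so the Atp1b1 call rests on 1 probe set. Among nerve and Schwann cell markers S100b was the single called gene of 14, where 0.424% of all genes were called higher. That list had 9 positive and 5 negative differences, with a median of 0.17 and a lower quartile of -0.15. The factor Sox10 had 1.37 ± 0.28 (adjusted p = 0.0766). S100b was the steadiest of these genes among range-titled glands, with an SD of 0.07 (n = 4).

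Alkaline phosphatase Alpl read 7.87, 8.07, 7.78 and 7.62 against 5.14 and 5.52, a difference of 2.50 ± 0.24 (adjusted p = 0.0126). The peptide hormone gene Cck read 9.43, 9.29, 9.21 and 9.47 against 6.95 and 7.35, a difference of 2.20 ± 0.23 (adjusted p = 0.0154). Both groups of PN1b glands lay above most PN1a glands for Cck, where PN1a ran from 2.02 to 7.01. The ligand Bmp5 read 3.38, 3.59, 4.11 and 4.11 against 1.61 and 1.04, a difference of 2.47 ± 0.31 (adjusted p = 0.0165). Its single-titled values are low, so the size of this fold is also less certain than its direction. Atp2a3, a calcium pump of the endoplasmic reticulum, was called through 2 probe sets, with differences of 1.77 ± 0.25 and 2.45 ± 0.39, and another probe set had 0.96 (adjusted p = 0.165). Cpd, a carboxypeptidase, had 2.96 ± 0.40 by the called probe set and 0.90 (adjusted p = 0.142) by its brighter one, so its size depended on the probe set.

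**Figure D3:**
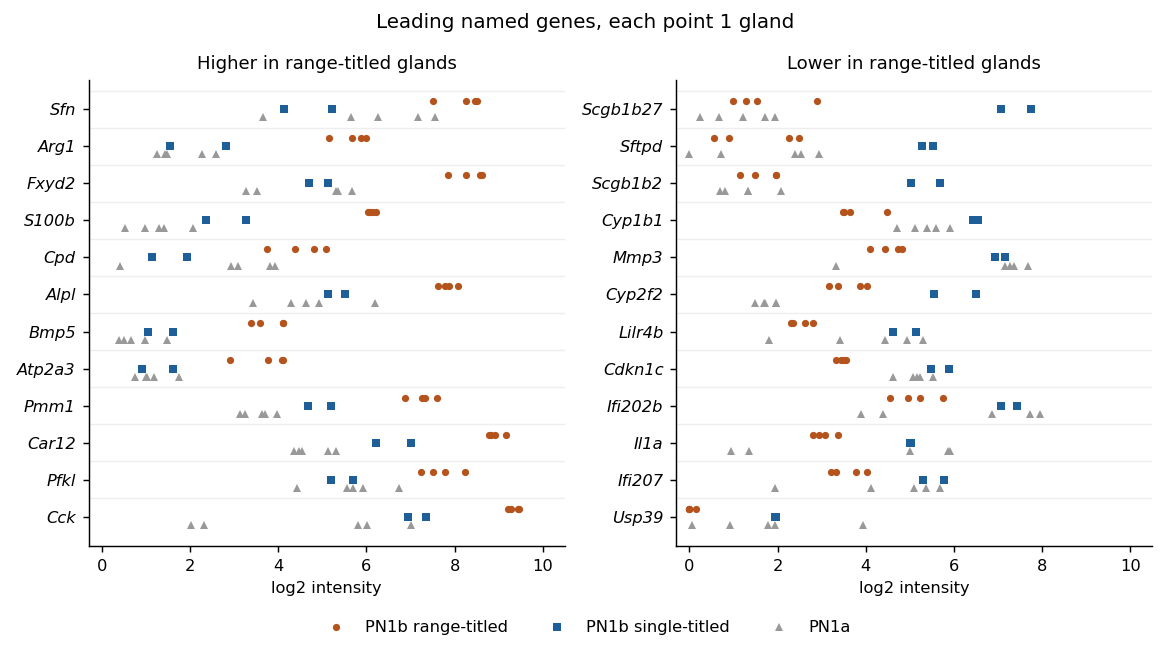
The 12 largest called changes in each direction among probe sets with 1 gene symbol, with log2 intensity on the x axis and each point 1 gland. Circles are range-titled, squares single-titled and triangles PN1a glands; for Arg1 and S100b the squares lie near the triangles, while for Scgb1b27, Sftpd, Scgb1b2 and Cyp2f2 the squares (7.06 and 7.75 for Scgb1b27) stand apart from both other kinds.

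The genes that fell in range-titled glands began with secreted proteins of other glands. Scgb1b27 and Scgb1b2, secretoglobins of the androgen-binding protein family of salivary and lacrimal glands, had the largest and, after Sftpd, the next largest changes. Scgb1b27 read 0.99, 2.89, 1.28 and 1.54 against 7.06 and 7.75, a difference of -5.73 ± 0.51 (SE, adjusted p = 0.00785), and Scgb1b2 read 1.49, 1.97, 1.96 and 1.15 against 5.02 and 5.69 (difference -3.71 ± 0.32, adjusted p = 0.00785). Members of this family are near-identical copies, so which member the probe sets measured is uncertain.

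Sftpd, the surfactant protein D of lung and other mucosae, read 2.27, 2.48, 0.55 and 0.91 against 5.27 and 5.52, a difference of -3.84 ± 0.55 (adjusted p = 0.0301). Cyp2f2, a cytochrome P450 of the airway, read 4.03, 3.88, 3.16 and 3.38 against 5.54 and 6.50, a difference of -2.41 ± 0.36 (adjusted p = 0.0368). PN1a reached at most 1.95 for Scgb1b27, 2.07 for Scgb1b2, 2.95 for Sftpd and 1.97 for Cyp2f2. For these 4 genes both single-titled glands were higher than every other sample of the series, although PN1a has the same label ending. Low intensities near the lowest value of 1 carry little information, so the size of these folds is less certain than their direction.

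Another set of called genes is known from stroma, matrix turnover and inflammation. Mmp3, stromelysin, read 4.44, 4.10, 4.73 and 4.82 against 7.16 and 6.92, a difference of -2.52 ± 0.27 (adjusted p = 0.0154). The cytokine Il1a read 3.37, 2.93, 3.07 and 2.80 against 5.02 and 5.01, a difference of -1.97 ± 0.24 (adjusted p = 0.0156). Ptgs2, the inducible cyclooxygenase, read 3.01, 3.46, 3.34 and 3.12 against 5.44 and 4.56, a difference of -1.77 ± 0.30 (adjusted p = 0.0495). In all 3 genes the single-titled glands were higher than every range-titled gland, and Il1a was all but identical in the pair.

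Cyp1b1, a cytochrome P450 that metabolizes oestrogens and is induced through the aryl hydrocarbon receptor, read 3.50, 3.65, 3.48 and 4.47 against 6.42 and 6.54, a difference of -2.70 ± 0.32 (adjusted p = 0.0154). A second, very dim Cyp1b1 probe set (mean log2 intensity 0.84) had 0.19 (adjusted p = 0.797). Cdkn1c, the cell cycle inhibitor p57, read 3.56, 3.51, 3.33 and 3.43 against 5.89 and 5.48, a difference of -2.23 ± 0.23 (adjusted p = 0.0154). PN1a read 4.70 to 5.90 for Cyp1b1 and 4.61 to 5.53 for Cdkn1c, so that for both genes all 4 range-titled glands were lower than all other samples. Lox, which crosslinks collagen, had -1.72 ± 0.26 (adjusted p = 0.0376), with a second probe set at -1.28 (adjusted p = 0.0777), and the stress factor Nupr1 had -1.66 ± 0.24 (adjusted p = 0.0343). The immune receptor Lilr4b had -2.36 ± 0.26, and the interferon-induced Ifi202b and Ifi207 had -2.12 ± 0.34 and -1.96 ± 0.31, each from a family of similar copies whose signals may be shared.

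The promoters of Mmp3 and Il1a are shown because both called genes hold the letters TGANTCA, which the AP-1 factors of inflammatory signalling recognise and which read the same on both strands. They are on chr9:7445572-7445821 (plus strand) and chr2:129309973-129310222 (minus strand), with the first base of the match 46 and 12 bases before the start, and capitals mark the match.
Mmp3: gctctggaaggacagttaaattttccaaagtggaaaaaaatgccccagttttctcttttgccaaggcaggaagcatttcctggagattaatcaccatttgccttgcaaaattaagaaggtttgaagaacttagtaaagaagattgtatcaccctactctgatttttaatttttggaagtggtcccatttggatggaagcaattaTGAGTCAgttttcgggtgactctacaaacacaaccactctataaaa
Il1a: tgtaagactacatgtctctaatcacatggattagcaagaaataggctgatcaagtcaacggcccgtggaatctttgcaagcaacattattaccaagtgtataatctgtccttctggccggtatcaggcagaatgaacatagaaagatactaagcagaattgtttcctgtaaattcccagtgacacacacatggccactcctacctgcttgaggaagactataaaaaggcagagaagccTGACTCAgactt
Of the 21 genes called lower, 13 had a window and 2 held this motif (15.4%), these 2 genes, against 7.82% of all RefSeq genes. Among genes called higher, 1 of 32 with a window held it (3.12%). These counts are small, so nothing about these glands is read from them. A role of AP-1 was not tested. The window of Ptgs2 held neither motif.

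Fibroblast and extracellular matrix genes had a negative median without any called member. Collagen Col3a1 read 8.60, 8.63, 8.60 and 8.67 against 9.38 and 9.32 (difference -0.72 ± 0.21, adjusted p = 0.158). Collagen Col1a1 read 8.60, 8.66, 8.09 and 8.04 against 9.38 and 8.95 (difference -0.82 ± 0.28, adjusted p = 0.217). The groups did not overlap for either gene. The differences of Ogn, Mfap5, Postn and Lum, small proteoglycans and matrix proteins of connective tissue, were -1.30 ± 0.25, -1.56 ± 0.34, -1.02 ± 0.23 and -0.80 ± 0.21. Of 30 members 0 were called in limma. Before adjustment 13 had p under 0.05 on the lower side and 1, Bgn, on the higher side, against 6.68% and 10.1% of all genes. In every range-titled gland 17 lay below both single-titled glands, where 11.3% of all genes did. The median was -0.53, and it was -0.35 without single-titled gland 1, which had the higher list mean of the pair (0.50 against 0.20).

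Immune markers also had negative medians with 0 called members in limma. Among 18 macrophage and monocyte markers 0 were higher and 4 lower at p under 0.05 before adjustment, against 10.1% and 6.68% of all genes. Their median was -0.46. It was -0.23 without range-titled gland 4 and -0.15 on the log2(value + 16) scale. The chemokine receptor Ccr2 read 1.89, 2.03, 1.49 and 2.06 against 2.88 and 3.52 (difference -1.33 ± 0.28, adjusted p = 0.0885), and Adgre1, a surface receptor of tissue macrophages, read 2.03, 2.83, 1.48 and 2.35 against 3.50 and 3.54 (difference -1.35 ± 0.36, adjusted p = 0.135). Both are dim, but neither overlapped between the groups. Csf1r, the receptor that macrophages need, had a difference of -0.63 ± 0.36, and the complement chain C1qa one of 0.69 ± 0.68, within the spread between glands. The list mean per gland overlapped, at -0.01, 0.34, -0.30 and -0.65 in range-titled against 0.41 and 0.21 in single-titled glands, and all 5 PN1a glands were higher, at 0.60 to 1.79.

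Mast cell markers had the lowest median of all lists, -0.82 over 13 genes. The proteases Cma1, Tpsb2 and Cpa3 had differences of -1.43 ± 0.28, -1.36 ± 0.27 and -1.21 ± 0.29 (adjusted p = 0.0755, 0.0761 and 0.108). A related protease outside the list, Cma2, was called at -1.80 ± 0.23 (adjusted p = 0.0209). Cma2 is named because it was called, and its signal may be shared with related proteases, so it is no separate measure of mast cells. The median was not steady, at -0.46 without single-titled gland 1 and -0.26 on the log2(value + 16) scale, and most members lay under a log2 intensity of 5. Neutrophil markers had a median of -0.65 over 15 genes. The secretory protein Ltf, which mammary epithelium also makes, read 7.14, 6.54, 6.22 and 4.21 against 8.33 and 9.06 (difference -2.67 ± 0.71, adjusted p = 0.134), so that gland 4 was far below the rest. Interleukin Il1b had -1.73 ± 0.49, and S100a8 had -2.48 ± 0.93 with wide scatter in both groups.

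Dendritic cell and MHC class II genes had a median of -0.68 over 15 members, led by Ccr7 (difference -1.36 ± 0.25, adjusted p = 0.0635). Of these members 11 had a negative and 4 a positive difference. T and NK cell markers had a median of -0.20 and B cell markers one of -0.05, the latter turning to 0.13 without range-titled gland 4. Endothelial markers had -0.22 over 20 genes, with Pecam1 at -0.90 ± 0.24 and Cdh5 at -0.60 ± 0.24, and 0 calls in limma. Before adjustment 4 of them were lower at p under 0.05, against 6.68% of all genes. Haemoglobin Hba-a1 read 7.59, 8.12, 7.17 and 6.65 against 9.98 and 8.52 (difference -1.87 ± 0.49, adjusted p = 0.132), and single-titled gland 1 was highest. The 9 red blood cell genes had differences of both signs, with a median of -0.05 (0.03 without range-titled gland 1), and Car2, which other cells also express, was at 7.10, 7.22, 7.01 and 7.34 against 6.29 and 6.04.

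**Figure D4:**
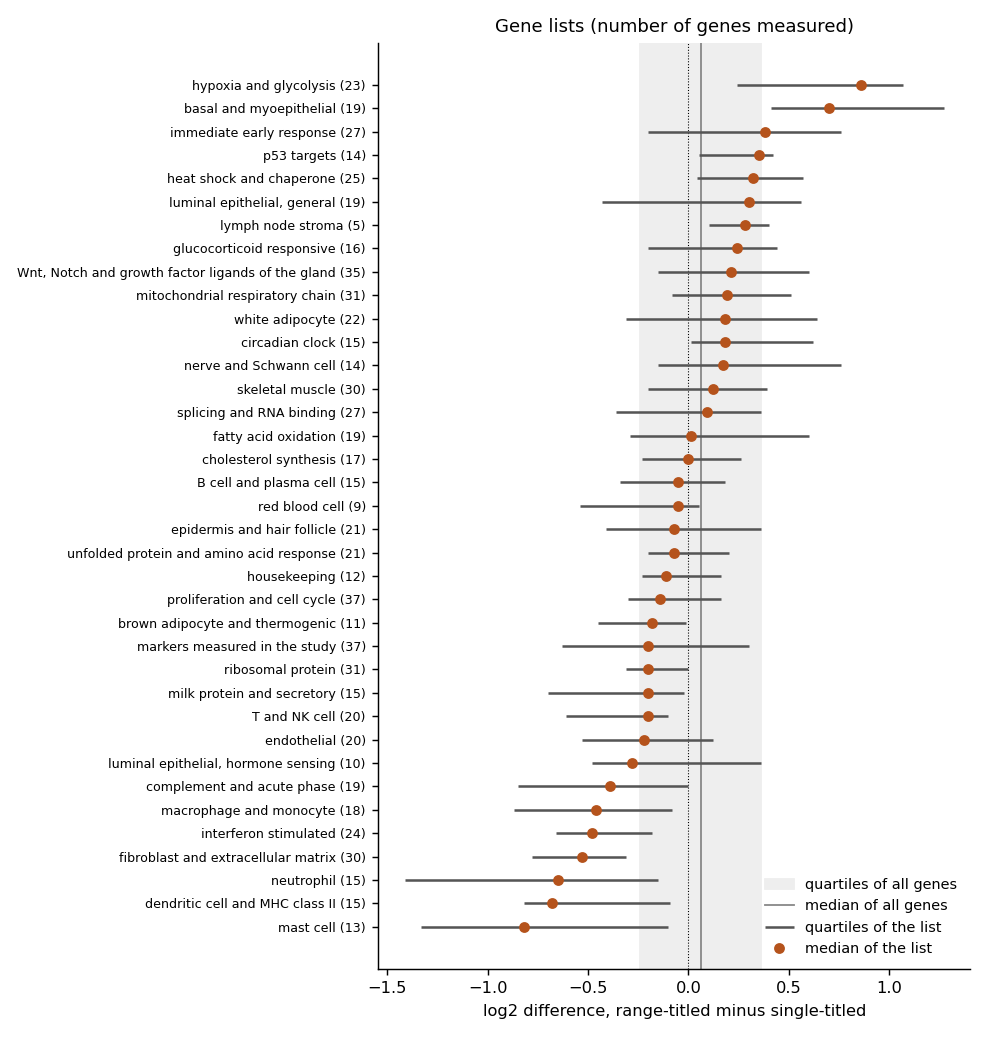
Median log2 difference of 37 gene lists on the x axis (orange points, range-titled minus single-titled) with the quartiles of each list as lines and its number of measured genes in parentheses. The grey band and line are the quartiles (-0.24 and 0.36) and median (0.06) of all genes. Hypoxia and glycolysis (0.86) and basal genes (0.70) lie highest. Lowest are the mast cell list (-0.82) and the combined list of dendritic cell and MHC class II genes (-0.68).

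A list of markers that the study measures, by array or by other means, held cytokines, receptors, keratins and other genes. Of 37 such genes on the array Arg1 was the single called one, on the higher side. Of all genes 0.424% were called higher and 0.23% lower. The inducible nitric oxide synthase Nos2 read 1.26, 0.77, 0.51 and 0.71 against 1.87 and 2.51 (adjusted p = 0.0915), near the lowest values of the table, so no direction is read from it. The cytokines Il10 and Tnf had -1.26 ± 0.32 and -0.96 ± 0.32, the chemokine Ccl2 had -1.13 ± 0.38 and Il6 had -0.79 ± 0.26. Ccl2 read 7.37, 7.65, 7.98 and 8.10 against 9.54 and 8.27, with single-titled gland 1 far above its partner. In all, 3 of the 37 had p under 0.05 before adjustment on the higher side and 7 on the lower side, where 10.1% and 6.68% of all genes did, with a median of -0.20.

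Stress response lists differed from one another. Of 27 immediate early genes 11 had p under 0.05 before adjustment on the higher side, with a median of 0.38. Ptgs2 was the 1 called, on the lower side, as were 0.23% of all genes. It was also the 1 lower at p under 0.05 before adjustment. Over all genes 10.1% were higher and 6.68% lower at that p, which also applies to the heat shock list. The cytokine signalling inhibitor Socs3 had 1.37 ± 0.35, Btg2 had 1.18 ± 0.29 and Gadd45b had 1.10 ± 0.24. Fos and Fosb had 0.38 ± 0.36 and 0.10 ± 0.40, and their values overlapped between the groups. Of the 27 immediate early genes 19 had a positive and 8 a negative difference. Of 25 heat shock and chaperone genes 9 were on the higher side and 1 on the lower at p under 0.05 before adjustment, with 0 calls in limma and a median of 0.32. The co-chaperone Dnajb1 read 7.36, 7.28, 7.66 and 6.65 against 5.58 and 3.68 (difference 2.61 ± 0.50, adjusted p = 0.0725), and the single-titled pair differed widely from each other. Unfolded protein and amino acid response genes had a median of -0.07 over 21 members, 10 with a positive and 11 with a negative difference, and Nupr1 was their 1 call, on the lower side.

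The following lists had medians within the quartiles of all genes, -0.24 and 0.36. White adipocyte genes had a median of 0.18 over 22 members and 1 call, Gpd1, which makes glycerol phosphate for fat and read 5.41, 5.43, 5.22 and 5.36 against 3.76 and 4.04 (difference 1.46 ± 0.22, adjusted p = 0.0369). A dimmer Gpd1 probe set (mean log2 intensity 1.7) had 0.36 (adjusted p = 0.67). Of all genes 0.424% were called higher. Before adjustment 6 adipocyte members were higher and 4 lower at p under 0.05 in limma, against 10.1% and 6.68% of all genes. Car3 and Fabp4, both on the lower side, had -1.34 ± 0.38 and -0.84 ± 0.32. Respiratory chain genes had a median of 0.19 over 31 members, proliferation genes -0.14 over 37 (0.04 without range-titled gland 4 or single-titled gland 2) and ribosomal protein genes -0.20 over 31, each without a call in limma. At p under 0.05 before adjustment 6 respiratory chain genes were higher and 0 lower, against 10.1% and 6.68% of all genes. Targets of p53, which the epithelium lacks and the host cells keep, had 0.35 over 14 members, close to the upper quartile. Of these targets 2 were higher and 0 lower at p under 0.05 before adjustment, where 10.1% and 6.68% of all genes were. Their list mean was higher in every range-titled gland than in both single-titled glands. Among ligands and receptors of the gland, Notch4 read 8.66, 9.08, 8.91 and 8.98 against 6.99 and 7.93 (difference 1.45 ± 0.30, adjusted p = 0.0843), with a PN1a mean of 3.38.

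Variation within the line was not only between the 2 kinds of label. Over the 6 glands the median SD of a probe set was 0.384 on the log2 scale, against 0.317 among the 4 range-titled glands and 0.265 among the 3 of them with the same ending. A median SD tends to be smaller with fewer samples, so these 3 values are not directly comparable. Of the 15 genes with the largest SD over 6 glands at or above median intensity, 6 were higher and 5 lower in every range-titled gland, and 4 overlapped. Over all genes 16.6% and 11.3% were separate in these directions, and since a gap between the groups itself raises the SD, nothing is read from the first counts. The 4 that overlapped were Cks1b, Rsad2, Sdc4 and Cxcl5. Cks1b, a cyclin-dependent kinase subunit, read 7.05 in range-titled gland 4 and 2.46 to 3.58 in the other 5, and Sdc4, a syndecan, read 3.49 in range-titled gland 1 and 6.14 to 7.61 in the others.

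Range-titled gland 4 was the lowest of its group for 3 list means: macrophage, dendritic cell with MHC class II, and interferon. For T and NK cell and B cell markers gland 3 was lowest, for neutrophil markers gland 1 and for mast cell markers gland 2. The complement chain C1qb read 4.32, 4.37, 3.82 and 2.12 across range-titled glands, and C1qc read 5.37, 5.62, 4.82 and 3.23. Cd74, the invariant chain of MHC class II, read 8.89, 8.64, 7.73 and 6.64. In each of these genes gland 4 was lowest and glands 1 and 2 highest, and for Cd74 the single-titled glands, at 8.68 and 7.88, lay inside the range of the others. Isg15, an interferon-induced ubiquitin-like protein, read 6.44, 7.46, 7.63 and 4.83 against 7.33 and 5.81, and the interferon regulatory factor Irf7 read 5.64, 6.82, 6.53 and 4.12 against 5.92 and 5.99. The interferon list mean was -0.19, 0.09, 0.29 and -0.81 against 0.67 and -0.05. These means overlapped between the kinds of label, and single glands cannot be tested against each other.

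**Figure D5:**
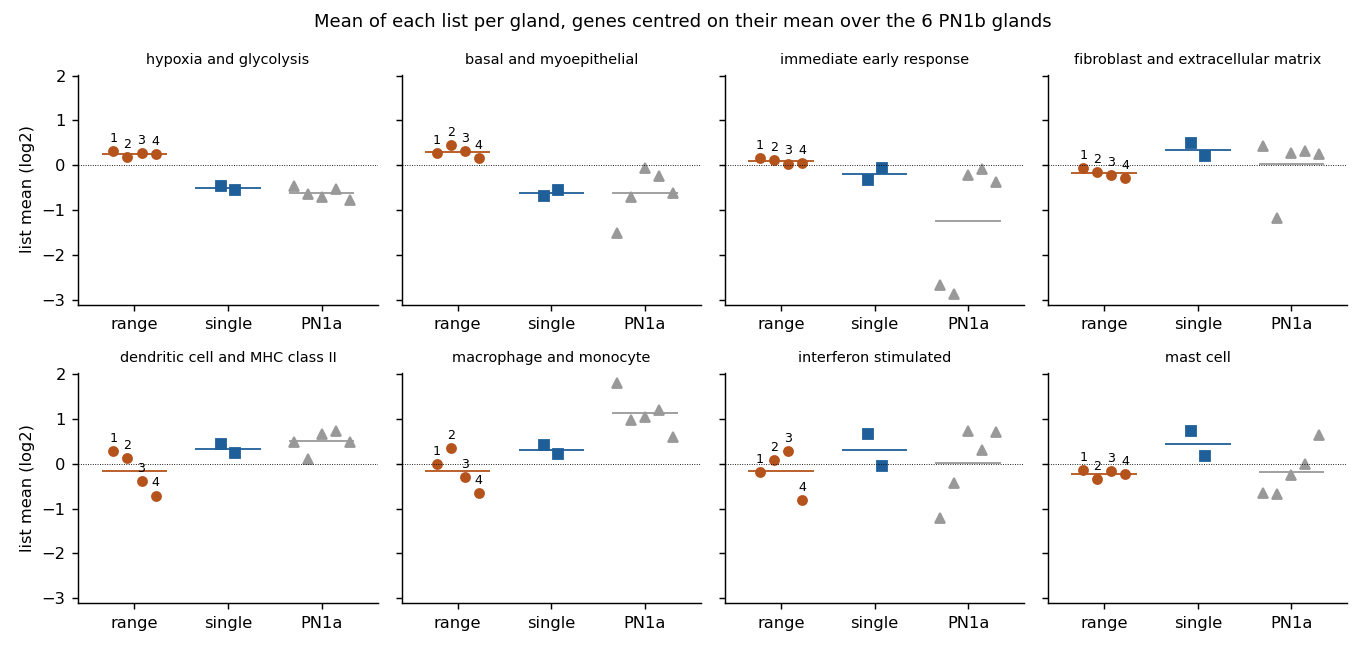
Mean of 8 gene lists per gland on the y axis (log2, each gene relative to its mean over the 6 PN1b glands), by group on the x axis. Horizontal bars are group means and numbers mark range-titled glands. The hypoxia and glycolysis means (0.18 to 0.32 against -0.46 and -0.56) and basal means separate the groups. Means of the dendritic cell and MHC class II, macrophage and interferon lists spread over range-titled glands, with gland 4 lowest at -0.71, -0.65 and -0.81.

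PN1a glands give a reference that was not used to call the differences. The called probe sets were, however, chosen through their range-titled values, so their distance from PN1a is partly fixed by that choice. The shares over all probe sets below are no matched background for them, and the counts are a description only. For 44 of the 49 probe sets called higher, the PN1a mean lay nearer the single-titled than the range-titled mean, where 53.1% of all probe sets with a positive difference did, and for 37 of the 49 every range-titled gland was higher than every PN1a gland, as for 1005 of all 12422 probe sets. For the 28 called lower the PN1a mean lay nearer the single-titled mean in 12, where 50.2% of all with a negative difference did, and for 6 of the 28 every range-titled gland was lower than every PN1a gland, as for 516 of all probe sets. PN1a glands 1 and 2 were low for many of these genes, for example 0.95 and 1.36 for Il1a beside 5.00, 5.87 and 5.91 in the other 3. Without those 2, a choice made after the data were seen, the PN1a mean was nearer the single-titled mean in 42 of 49 and 21 of 28, where 59.3% and 54.8% of all probe sets with such a difference were. Since PN1a and single-titled glands share a label ending, nearness to PN1a is no independent measure of the lesion, and ending, title form and tissue cannot be told apart.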

How the data were processed

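Total RNA of whole glands was hybridized to Affymetrix MG_U74Av2 arrays, 1 per sample. Values came from dChip (PM-MM model, quantile normalization), and the authors deposited 1 linear intensity for each of 12488 probe sets. No detection calls were used here, and no scanner files.

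Tests used log2 of the deposited intensity with no pseudocount and without the 66 array controls. Probe sets were named through GEO's platform annotation, with 10833 carrying 1 symbol, 396 several and 1193 none, and a gene in a list by its probe set of highest mean over the 6 PN1b samples. Samples were grouped by label. Range-titled and single-titled glands were compared by limma 3.58.1 under R 4.3.3 (lmFit, eBayes, two-sided, Benjamini-Hochberg, no covariate). SE is the moderated one. The fit was tested on simulated data. Lists got counts and medians only. Members, lists and rules were chosen with earlier results of these data known. Named genes were the 12 largest calls in each direction, called or leading list members, markers the study measures and the 15 genes of largest SD. Some others, among them Hif1a, Acta2, Cd74 and C1qb, were chosen after their values were seen. No 2 samples shared over 1.24% of values.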

Additional observations from a re-analysis of the deposited data

Results flagged for a closer look

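Of 166 values tested in the range-titled group, 4 had 1 gland whose gap to the nearest of the others was over Dixon's critical share of the range. Chance alone gives about 1 such group in 20. Pkm, pyruvate kinase, read 8.84 in range-titled gland 4 and 9.27 to 9.29 in the other 3, a gap of 0.956 of the range. The casein gene Csn3 read 3.54 in gland 4 and 4.66 to 4.77 in the others (0.911). Col17a1 read 6.08 in gland 1 and 6.34 to 6.38 in the others (0.867). The list mean of brown adipocyte and thermogenic genes was 0.15 in gland 4 and -0.15 to -0.11 in the others (0.853).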

How the results depend on the processing

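The number of calls depended on the processing. Against 49 higher and 28 lower probe sets, the counts were 14 and 8 with all 11 samples in 3 groups, 227 and 134 with probe sets under the median intensity left out, 146 and 85 with log2(value + 16), and 256 and 153 with a trended, robust prior, which kept all 77 calls. The methods' t-test gave 283 and 172 at p under 0.01 with the 1.5-fold threshold, and 0 and 0 after Benjamini-Hochberg adjustment. Leaving out 1 gland gave 0 to 14 higher and 0 to 8 lower. Centring, repeated quantile normalization and label ending as a random block stayed within 1.5 times of both counts. No paired analysis was possible because the labels give the groups no shared replicate numbers.

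No called gene named here reversed its direction under any alternative tried. Leaving out 1 gland moved the median of hypoxia and glycolysis genes between 0.72 and 0.94, of basal genes between 0.64 and 1.03, of fibroblast and matrix genes between -0.74 and -0.35, of macrophage genes between -0.61 and -0.23 and of mast cell genes between -1.18 and -0.46. The hypoxia and glycolysis median was 0.78 after repeated quantile normalization and 0.48 with log2(value + 16). The basal median was 1.01 with dim probe sets left out and 0.50 with log2(value + 16), and the mast cell median was -1.36, -0.26 and, when probe sets of one gene were averaged, -0.40. The macrophage median was -0.15 with log2(value + 16) and -0.20 when probe sets were averaged. The causes were not tested.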
